A study of Caenorhabditis elegans with 2 samples.

Results

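The genes described are the translation initiation and elongation factor genes of Caenorhabditis elegans, taken as all protein-coding genes whose symbol starts with eif-, eef-, ife-, ifg- or iff-. They number 39 of the 19973 protein-coding genes on the 6 nuclear chromosomes of the WBcel235 (ce11) annotation, and the rule used the symbols alone and no measured value. The study used chromatin immunoprecipitation with sequencing (ChIP-seq) to ask where the transcription factor EFL-1, tagged with GFP, sat on the genome in L1 larvae, the stage that hatches from the egg. It had 1 group of 2 libraries, labelled as biological replicates, from mixed-sex whole larvae of strain YL424 at an unstated age. The strain carries the unc-119 mutation ed3 on chromosome III and the inserted transgene vrIs68, in which the efl-1 promoter drives EFL-1 joined to GFP and FLAG, followed by the EFL-1 3' UTR and a working unc-119 gene. The labels name no efl-1 mutation, so as far as they say the tagged protein is made beside the animal's own EFL-1.

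Translation starts when the small ribosomal subunit, loaded with eIF1, eIF1A, eIF3 and the initiator tRNA held by eIF2, is brought to the capped end of an mRNA by the eIF4 factors and scans to a start codon. Elongation then runs on eEF1A, which delivers aminoacyl-tRNAs, and eEF2, which moves the ribosome along the mRNA. These roles are known mainly from yeast and mammals. EFL-1 is an E2F-family factor that binds DNA with its partner DPL-1 and is a subunit of DREAM, a complex best known for repressing cell cycle genes.

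The measurement is a position and a score. A reproducible peak is an entry of the list that the authors derived from both replicates by the irreproducible discovery rate. This method looks for entries that rank alike in replicates, and how it was applied here is not given in the sources used. The reproducible list held 3824 peaks, and its scores are the authors' own on an unstated scale. All 3824 stood in the list called on the pooled replicates with the same span and score. The promoter was the stretch from 500 bp before to 100 bp after a transcript start in the annotation, a summit in it made the gene count as having a promoter peak, and the strongest such peak stood for the gene. The replicate 1 list held 30000 entries and the replicate 2 list 28686, both with background entries, and scores were not compared between lists. Sequencing depth is unknown, since peak lists give no numbers of reads. With 1 group and 2 libraries no test between conditions could be made and no p-value is given, so the shares below are descriptions set beside the same share over all genes. Peak lists hold no expression values, so the labelled tissue and stage could not be checked against marker genes, and whole animals give no cell type for a peak.

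EFL-1::GFP was found at the promoters of most translation factor genes. A reproducible promoter peak was present for 29 of the 39 (74.4%), against 14.8% of all protein-coding genes (2947 of 19973). All 6 elongation factor genes had one, as did all 3 genes for eIF5A and eIF6, 10 of 12 genes for start codon selection and eIF2, and 7 of 11 eIF3 genes. The cap-binding and eIF4 genes had the fewest, with 3 of 7. The 29 genes had 29 different peaks, and their scores ran from 75.8 to 3712 with a median of 312, while the median over all 2947 genes with a promoter peak was 169. Of the 29, 13 (44.8%) had a peak within the top 20% of scores (765 peaks), beside 31.7% of all genes with a promoter peak. With a promoter of 250 bp upstream to 50 bp downstream, 19 of the 39 had a peak and 10.1% of all genes. Among the stronger 50% of peaks the medians were closer, 349 over 25 members and 311 over all genes left. The order of the medians turned when only peaks that passed a −log10 q of 2 in both replicates were kept, to 454 over the 19 members left and 512 over all genes left.

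**Figure D1:**
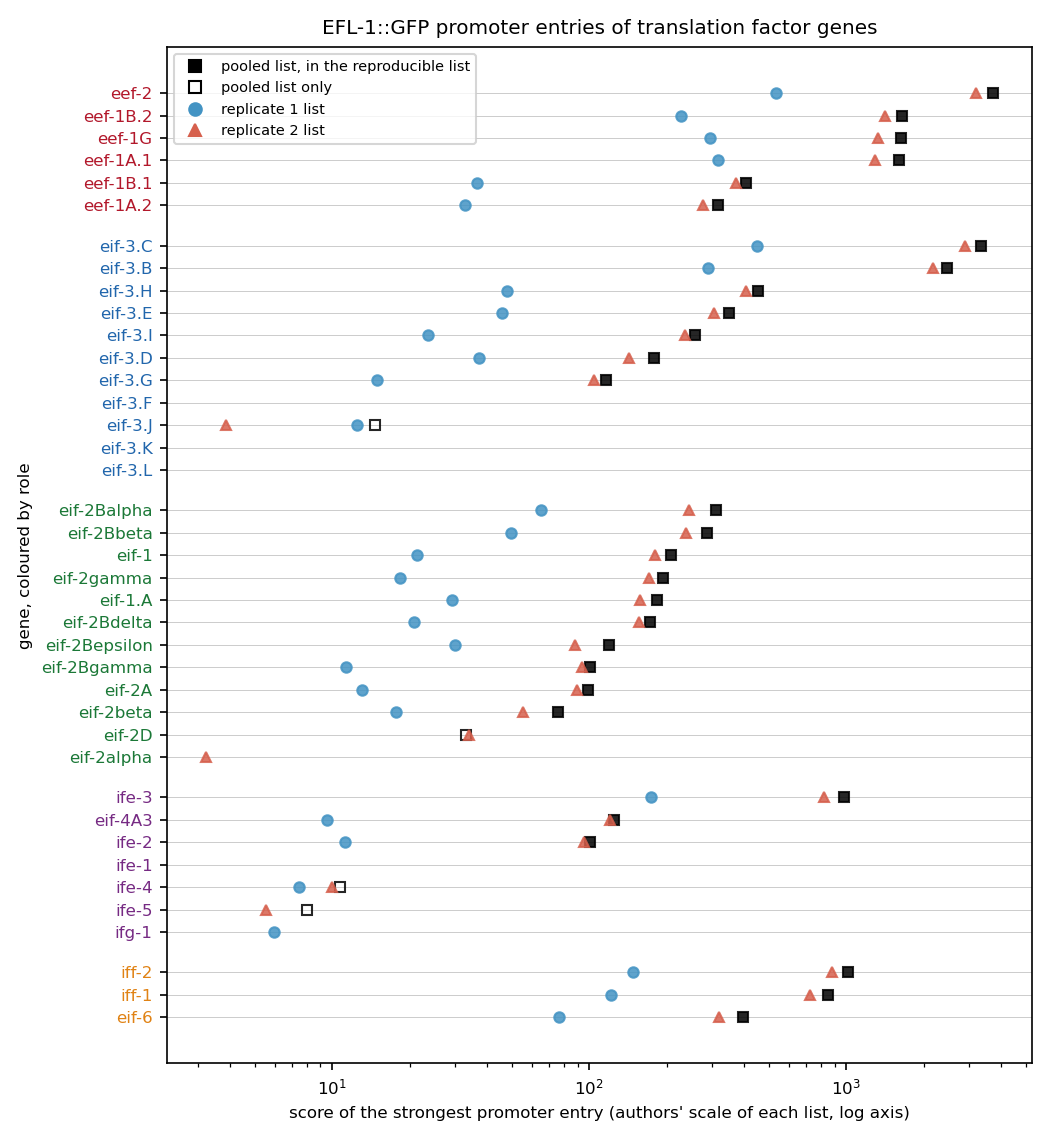
Score of the strongest promoter entry of each of the 39 genes (horizontal axis, logarithmic, the authors' scale of each list) in the pooled list (squares, filled where the entry is in the reproducible list), the replicate 1 list (circles) and the replicate 2 list (triangles), with genes coloured by role. The elongation factor genes all have filled squares, led by eef-2 at 3712, and the lines of eif-3.F, eif-3.K, eif-3.L and ife-1 are empty; positions of circles, triangles and squares are not comparable with each other because each list has its own scale.

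The DNA under the peaks was searched for the letters that E2F factors and DREAM are known to recognise. The E2F core was TTCCCGC or else TTGGCGC or else TTCGCGC or else TTGCCGC, and the core of the cell cycle homology region (CHR), which the DREAM subunit LIN-54 binds, was TTTGAA or else TTCGAA. Both strands were read within 50 bp of the summit, no stretch shown holds both kinds of core, and TTCGAA is its own reverse complement. The stretches below are 30 bases each, from the RefSeq copy of WBcel235, read 5′ to 3′ on the strand of the gene, with the cores in capitals. They are shown as examples of CHR cores at peaks of high and lower score and of the E2F cores of 3 of the 4 genes with one.
eif-3.B, chrII:14795119-14795148, plus strand: gagtTTCAAAattatctctaTTTGAAattc
eef-1B.2, chrIV:15037111-15037140, plus strand: gatttcgcTTCAAAtTTTGAActtccctcc
eef-1A.1, chrIII:6972122-6972151, minus strand: ccgccgagagtgTTTGAAatggtgtacggt
iff-1, chrIII:9747386-9747415, minus strand: taagcgtgtaatTTTGAAtcatttccactg
eef-1A.2, chrX:7823264-7823293, plus strand: attacgcaaaatTTCGAAactcggagagtg
eif-3.D, chrIII:8971814-8971843, minus strand: aagtggcgaatgTTGGCGCgtttcgtgtac
eif-2Bdelta, chrV:9513771-9513800, plus strand: gcgcacataatGCGCCAAcagagattgctg
eif-2A, chrII:10416624-10416653, plus strand: tatttaatcttTTCCCGCtagaataattta
eif-2A, chrII:10416656-10416685, plus strand: ctggatacggtGCGCGAAattctgcatttc
eif-2A, chrII:10416688-10416717, plus strand: aatgtatgccgGCGCCAAatacgacgccat

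In eif-3.B and eef-1B.2 a pair of CHR cores lay on opposite strands, and in eif-2A 3 different E2F cores were spread across the summit, centred at −36, −4 and 28 bp from it. A CHR core lay near the summit in 11 of the 29 peaks (37.9%), against 34.4% of all 3824 reproducible peaks, and an E2F core in 4 (13.8%), against 16.8%. The CHR letters read backwards were found in 2 of the 29 (6.90%) and in 9.13% of all peaks, and the E2F letters read backwards in 1 (3.45%) and in 9.65%. In windows of the same length centred 150 bp upstream of the start, 34.1% of all 19973 promoters held a CHR core and 3.57% an E2F core. The letters read backwards were in 19.7% and 1.80% of these promoters. Among the top 20% of reproducible peaks, 59.2% held a CHR core and 31.0% an E2F core, so both shares were higher there than over all peaks. The letters read backwards were found there in 12.7% and 16.2%. Of the members' peaks, 13 of the 29 belong to this top 20%. Of the 4 members with an E2F core, only eef-2 was among these 13. Of the 11 with a CHR core, all but eef-1A.2, eif-4A3 and eif-2Bepsilon were. Within the set, 5 of the 6 elongation factor peaks held a CHR core, whereas 1 of the 10 start codon and eIF2 peaks did. These groups also differed in score, with 5 of the 6 and 0 of the 10 in the top 20%. In addition, 4 of the 6 and 3 of the 10 peaks also lay in another gene's promoter. Of the elongation peaks with a CHR core, those of eef-2, eef-1A.1 and eef-1B.1 were so shared, and those of eef-1B.2 and eef-1A.2 were not. The single eIF2 peak with one, that of eif-2Bepsilon, was shared. The part of score and of sharing in the difference in cores was not tested. The eef-2 peak was the one with both kinds, with E2F cores centred at −28 and −12 bp and a CHR core at −19 bp from the summit. A match is a description of letters and not a site.

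**Figure D2:**
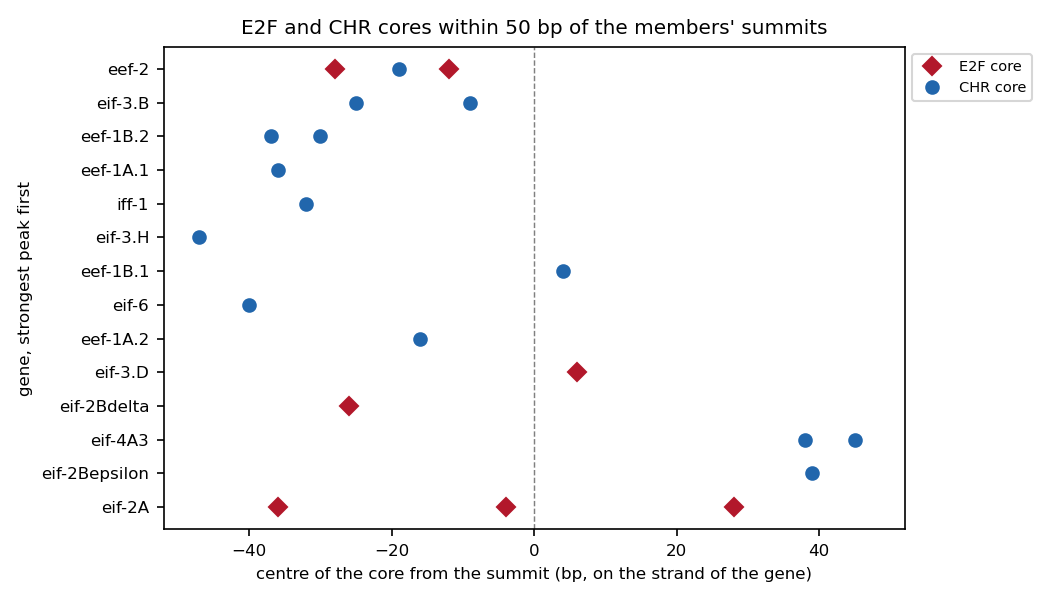
Centres of the E2F and CHR cores found within 50 bp of the summit (horizontal axis, bp from the summit on the gene's strand) for each gene with a reproducible promoter peak that holds one. The eef-2 peak carries both kinds, and the CHR cores of eif-3.B at −25 and −9 bp and of eef-1B.2 at −37 and −30 bp form pairs.

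The elongation factor genes had the highest median score of the role groups, 1616. Of their 6 peaks, 5 lay within the top 20% of scores. However, 4 of the 6 (66.7%) also lay in another gene's promoter, beside 45.6% over all genes with a promoter peak. Among the 5 strong peaks, only that of eef-1B.2 lay in no other promoter. The scores of the shared peaks therefore cannot be assigned to the elongation genes alone. The peak of eef-2 (WBGene00001167), the translocase, lay at chrI:9163319-9163719 with its summit at −11 bp from a start. It scored 3712 and ranked 18 of 3824, and its promoter entry scored 531 in replicate 1 and 3184 in replicate 2, at rank 20 in each. No other member ranked higher in any list.

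The genes of the exchange complex that reloads eEF1A with GTP followed. The eef-1B.2 peak (WBGene00012768, chrIV:15036985-15037351) scored 1654.5, with 227 in replicate 1 and 1419.9 in replicate 2, and its summit lay at −173 bp. The eef-1G peak (WBGene00008920, chrV:10965503-10965845) scored 1628, with 296 in replicate 1 and 1326 in replicate 2, and sat at −42 bp. The second beta subunit gene, eef-1B.1 (WBGene00018846, chrIII:7973267-7973506), had a lower score of 408, with 36.7 in replicate 1 and 372 in replicate 2. Its summit lay 6 bp inside the transcript, in the gene's own 5' UTR, and it was the only member with the summit downstream of its nearest start.

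The peaks at the 2 genes for eEF1A differed in score. That of eef-1A.1 also lay in the promoter of rfc-4, nearer the rfc-4 start, and that of eef-1A.2 in no other promoter. When each summit was given to its nearest start alone, eef-1A.1 lost its peak and eef-1A.2 kept its own. The difference therefore cannot be assigned to the eEF1A genes alone. The eef-1A.1 peak (WBGene00001168, chrIII:6971932-6972273) scored 1604, with 317 in replicate 1 and 1294 in replicate 2, and its summit lay at −388 bp. The eef-1A.2 peak (WBGene00001169, chrX:7823198-7823421) scored 316, with 33.0 in replicate 1 and 278 in replicate 2, at −360 bp. Thus eef-1A.1 ranked 215 and eef-1A.2 ranked 800 of 3824, and eef-1A.1 also ranked higher in each replicate list, at 106 against 1013 and at 229 against 793.

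**Figure D3:**
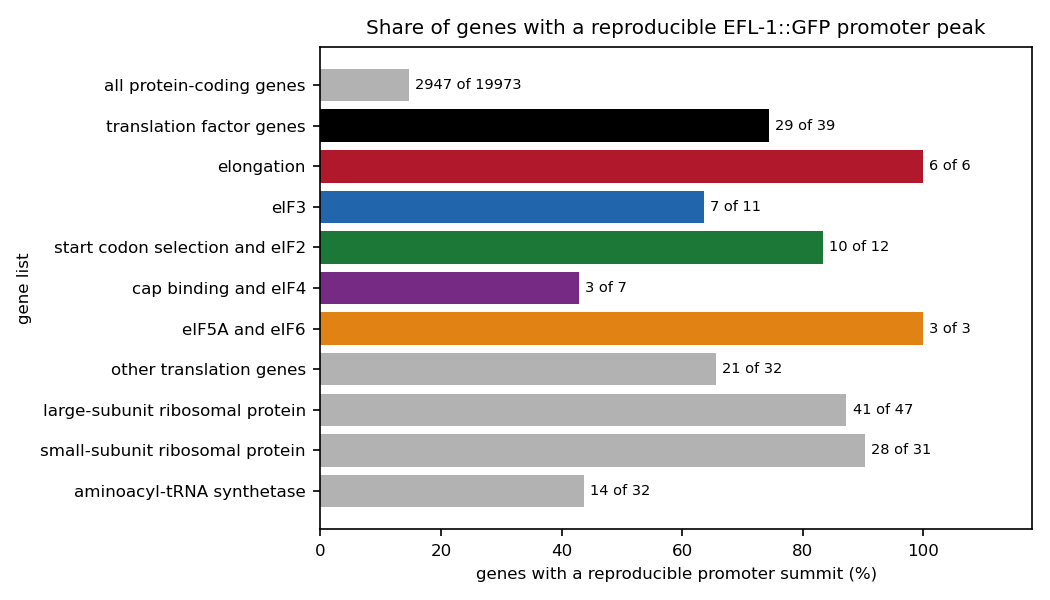
Share of genes with a reproducible promoter peak (percent, axis from 0) in the role groups of the translation factor genes, in the comparison lists and over all protein-coding genes, with the numbers of genes. The elongation factor genes and the eIF5A and eIF6 genes are all counted, 3 of 7 cap-binding and eIF4 genes are, and 14.8% of all genes are.

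The eIF3 genes encode the large scaffold on the small ribosomal subunit, and they split into a few very strong peaks, several moderate ones and 4 genes without any. The eif-3.C peak (WBGene00001226, chrI:9979717-9980117) scored 3337 and ranked 31 of 3824, with 450.2 in replicate 1 and 2894 in replicate 2. The eif-3.B peak (WBGene00001225, chrII:14794903-14795348) scored 2464 and ranked 88, with 289.7 in replicate 1 and 2176 in replicate 2. These genes code for core scaffold subunits, and their summits lay at −249 and −254 bp. Neither peak lay in the promoter of another gene.

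Then came eif-3.H (WBGene00001231, chrI:4444341-4444594), a subunit of the part that mammals have and budding yeast lacks, with a score of 454, 47.9 in replicate 1 and 406 in replicate 2. The eif-3.E peak scored 349, eif-3.I 257, eif-3.D 179 and eif-3.G 116. The eif-3.I promoter held a second reproducible summit of score 57.4 at −497 bp, the only such case among the members. Without a reproducible peak were eif-3.F, eif-3.J, eif-3.K and eif-3.L. The median over the 7 eIF3 genes with a peak was 349.

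The genes for start codon selection and eIF2 were mostly occupied, at lower scores. Their 10 peaks had a median of 178 and a range of 75.8 to 312, and 0 of the 10 lay within the top 20% of scores. All 5 genes of eIF2B, the factor that recharges eIF2 with GTP, had a peak. Their scores were 312 for eif-2Balpha, 286 for eif-2Bbeta, 172 for eif-2Bdelta, 119 for eif-2Bepsilon and 100.3 for eif-2Bgamma. The 5 eIF2B summits lay close to the starts, between −149 and −13 bp. Those of eif-2Bbeta and eif-2Bepsilon lay nearer still to the starts of Y47H9C.8 and piga-1, at −55 and −21 bp. Of the 5 peaks, 3 passed a −log10 q of 2 in both replicates.

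Of eIF2 itself, eif-2gamma, whose product holds GTP and the initiator tRNA, scored 194 and eif-2beta 75.8. The eif-2beta peak was the weakest of the 29 and its summit lay in an intron of eif-2beta itself. It was upstream of an inner start only, and with the most upstream start alone eif-2beta had no peak. The regulatory subunit gene eif-2alpha had no reproducible peak. The scanning factor genes eif-1 and eif-1.A scored 207 and 184, with summits at −409 and −365 bp. The gene eif-2A, for a factor that binds initiator tRNA apart from eIF2, scored 99.0, and eif-2D had no reproducible peak.

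Among the cap-binding and eIF4 genes the peak of ife-3 (WBGene00002061, chrV:8109-8475) stood above the rest. It scored 983 and ranked 369 of 3824, with 174 in replicate 1 and 816 in replicate 2, at −445 bp. The other two with a peak were eif-4A3, for the helicase of the exon junction complex, at 125, and ife-2 at 100.2. The other genes for the cap-binding protein eIF4E, ife-1, ife-4 and ife-5, had none, and neither had ifg-1, the gene for its scaffold partner eIF4G.

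Both eIF5A genes had a peak at similar scores, and all 3 peaks of the eIF5A and eIF6 genes lay within the top 20% of scores. However, the iff-1 summit lay nearer the cdk-1 start, and the eif-6 summit nearer the pbs-2 start. When each summit was given to its nearest start alone, iff-1 and eif-6 lost their peaks and iff-2 kept its own. The scores of these shared peaks therefore cannot be assigned to iff-1 and eif-6 alone. eIF5A helps ribosomes past stretches that are slow to translate, and eIF6 keeps free large subunits from joining small ones. The iff-2 peak (WBGene00002065, chrII:8561272-8561603) scored 1019, with 148 in replicate 1 and 880.1 in replicate 2, and the iff-1 peak (WBGene00002064, chrIII:9747220-9747509) scored 848, with 121 in replicate 1 and 724 in replicate 2. Their ranks of 357 and 413 lay close together, and the replicate ranks were 358 and 414 in replicate 1 and 357 and 412 in replicate 2. The eif-6 peak (WBGene00001234) scored 397, with 76.3 in replicate 1 and 321 in replicate 2.

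**Figure D4:**
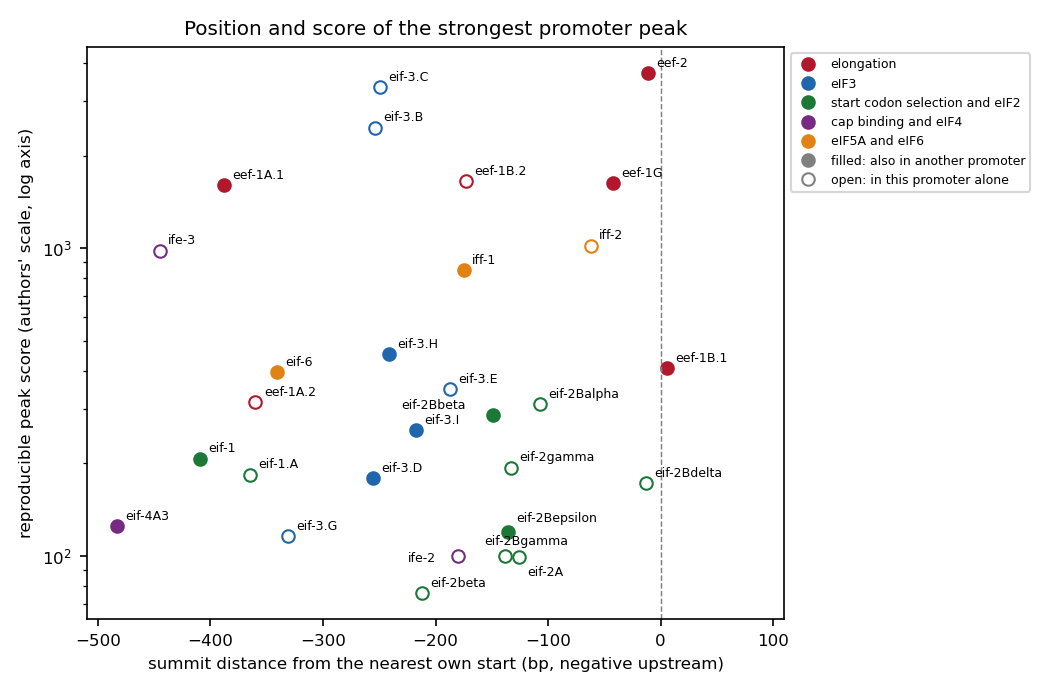
Summit distance from the nearest start of the gene (horizontal axis, bp, negative upstream) and reproducible peak score (vertical axis, logarithmic, the authors' scale) for the 29 genes with a peak, coloured by role, filled where the peak also lies in another gene's promoter. Of the 29, 28 summits lie upstream, from −483 bp for eif-4A3 to −11 bp for eef-2, and eef-1B.1 lies at 6 bp.

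The summits lay upstream of the nearest own start in 28 of the 29 genes. The median was −187 bp, against −172 bp over all genes with a promoter peak. Within 250 bp upstream lay 62.1% of them, against 64.3%. By annotation, 26 summits were intergenic, 2 lay in a 5' UTR and 1 in an intron of its own gene, eif-2beta. The 5' UTRs were that of eef-1B.1 itself and, for eif-4A3, that of its neighbour vps-20. The members' peaks were 86 to 446 bp wide with a median of 246 bp, narrower at the median than the 332 bp of all genes with a promoter peak. By chromosome, 10 of 12 members on I had a peak, 7 of 12 on II, 5 of 6 on III, 2 of 2 on IV, 3 of 4 on V and 2 of 3 on X.

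Of the 29 peaks, 13 (44.8%) also lay in the promoter of another gene, beside 45.6% over all genes with a promoter peak. In all 13 the other gene ran on the opposite strand, away from a shared upstream region, and the summit was nearer the other gene's start in 9 and nearer the member's in 4. Which of the genes a shared peak serves cannot be told apart from peak lists. Peaks shared with another gene had a median score of 397 and the 16 others 253, and over all genes with a promoter peak the medians were 226 and 129.

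The shared peak with the highest score was that of eef-2, whose neighbour clsp-1 encodes claspin, a replication checkpoint protein, with its start farther away at −254 bp. The eef-1G peak, at −42 bp, was shared with ctf-4, for a replisome protein, at −138 bp. The eef-1A.1 summit, at −388 bp from eef-1A.1, lay at −153 bp from rfc-4, for a subunit of the replication clamp loader. The iff-1 summit lay at −175 bp from iff-1 and at −104 bp from cdk-1, for the mitotic kinase. In eef-2 and eef-1G the translation gene was therefore the nearer one, and in eef-1A.1 and iff-1 the other gene.

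The remaining 9 shared peaks scored lower. The eif-3.H summit lay at −129 bp from C41D11.3, and the eif-6 summit was about as far from pbs-2, a proteasome subunit gene, at −325 bp as from eif-6 at −341 bp. The eef-1B.1 summit was at −337 bp from aco-2, for mitochondrial aconitase. The eif-3.I summit lay at −217 bp from eif-3.I and at −253 bp from abtm-1, for an ABC transporter. Its replicate scores were 23.5 in replicate 1 and 236 in replicate 2.

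In the other five the partner was the nearer gene. The eif-2Bbeta peak, with scores of 49.6 in replicate 1 and 238 in replicate 2, lay at −149 bp from its own start and at −55 bp from that of Y47H9C.8. The eif-1 peak, with 21.4 in replicate 1 and 181 in replicate 2, lay at −409 bp from eif-1 and at −9 bp from vps-24, and the eif-4A3 peak, with 119.9 in replicate 2, at −483 bp from eif-4A3 and 24 bp inside vps-20. The strongest replicate 1 entry in the eif-4A3 promoter, of score 9.54, had its summit elsewhere, at −258 bp. Both neighbours encode subunits of ESCRT-III, which sorts membrane cargo into vesicles. The eif-3.D peak, with 37.1 in replicate 1 and 142 in replicate 2, lay at −256 bp from eif-3.D and at −58 bp from R08D7.4. The eif-2Bepsilon peak, with 30.1 and 88.1, lay at −136 bp from its own start and at −21 bp from piga-1. When each summit was given to its nearest start alone, 20 of the 39 members kept a peak, beside 11.4% of all genes.

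Of the 10 genes without a reproducible promoter peak, 4 had an entry in the pooled list, which also holds background entries. The entry of eif-2D scored 33.1 in the pooled list at −123 bp, just under the lowest reproducible score of 35.7, and ranked 4008 of 28550, with 33.9 in replicate 2 and none in replicate 1. The strongest eif-3.J entries scored 14.7 pooled, 12.4 in replicate 1 and 3.86 in replicate 2, at −301, −301 and −232 bp. Those of ife-4 scored 10.7, 7.41 and 10.003, but lay apart, at −66, 86 and −293 bp. The ife-5 entries scored 7.94 pooled and 5.55 in replicate 2. In the pooled list, whose median was 11.3 and lowest score 7.63, eif-3.J ranked 8899, ife-4 15831 and ife-5 26798 of 28550.

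Entries in 1 replicate list alone were found for ifg-1, with 5.96 in replicate 1, and eif-2alpha, with 3.24 in replicate 2. The genes eif-3.F, eif-3.K, eif-3.L and ife-1 had no promoter entry in any list used. Several of these starts lay close behind a gene on the same strand: ife-5 began 65 bp behind Y57A10A.29, eif-3.F 116 bp behind wbp-2 and eif-2alpha 133 bp behind phb-1. The promoters of phb-1 and Y57A10A.29 held reproducible peaks, of scores 264 and 53.8, and that of wbp-2 held none. C. elegans can transcribe neighbouring genes of 1 strand as an operon, which was not considered here. The reproducible summit nearest to ifg-1 lay at −638 bp, outside the promoter window, in the promoter of M110.3 with a score of 111. That nearest to eif-3.J lay at −927 bp, in no gene's promoter, with a score of 289. A promoter of 1000 bp upstream to 200 bp downstream took in both, giving 31 members with a peak, beside 17.9% of all genes.

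**Figure D5:**
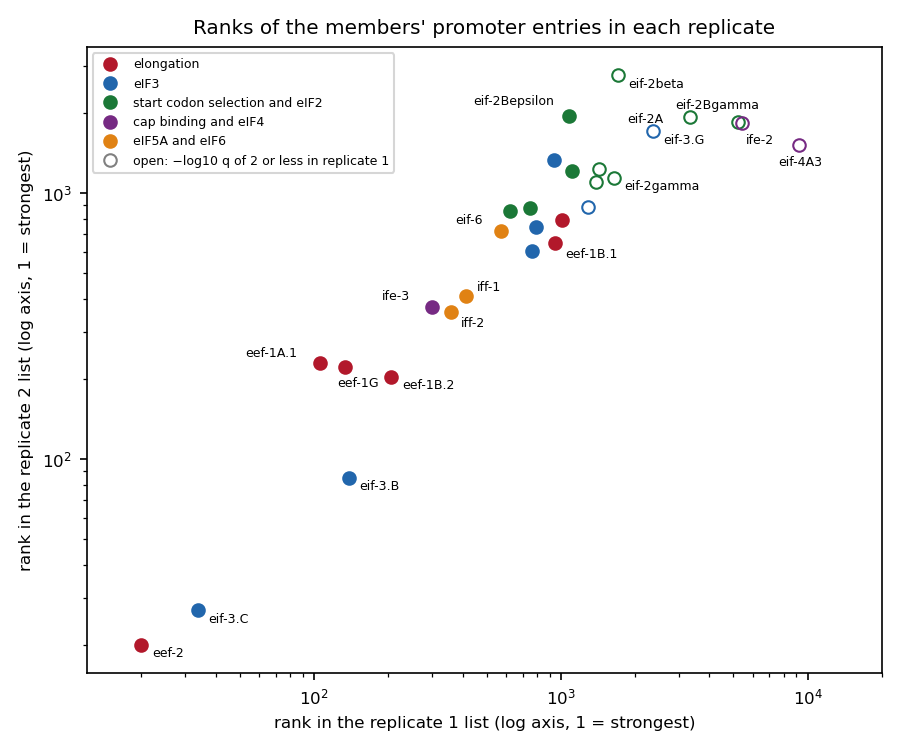
Rank of the strongest promoter entry in the replicate 1 list (horizontal, logarithmic) and in the replicate 2 list (vertical, logarithmic) for the 29 genes with a reproducible peak, where 1 is the strongest entry, open where −log10 q in replicate 1 is 2 or less. The strongest genes lie near the lower left, eef-2 at 20 in each list, and the open points of eif-4A3, ife-2 and eif-2Bgamma lie farthest right, at ranks 9209, 5427 and 5218.

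A promoter entry in both replicate lists was present for 31 of the 39 genes (79.5%), against 18.7% of all genes, and these include the 29 with a reproducible peak. The 2 entries of a gene could lie apart in the promoter, as for ife-4 at 86 and −293 bp. Over the 29 genes, Spearman's rho between the replicate scores was 0.912. It is no independent measure of agreement, since the reproducible list came from a method that looks for entries ranking alike, and the replicates shared 1 control. For some genes the paired scores came from different positions, as for eif-2A at −247 bp in replicate 1 and −134 bp in replicate 2. A −log10 q above 2 in each replicate was reached by 19 of the 29 (65.5%), beside 47.0% of all genes with a promoter peak. All 29 passed it in replicate 2 and 19 in replicate 1, whose list held 1196 such entries in all against 12800. The 10 that fell short in replicate 1 had scores of at most 257, and the weakest that passed in both scored 119. By role, all 6 elongation factor genes passed, 5 of 7 eIF3 genes and 4 of 10 start codon and eIF2 genes. The weakest in replicate 1 were eif-4A3, at rank 9209 with an entry at −258 bp, ife-2 at 5427 and eif-2Bgamma at 5218 with an entry at −250 bp.

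Beside other parts of the translation machinery, the share of translation factor genes with a peak lay between those of ribosomal protein genes and aminoacyl-tRNA synthetase genes. Genes for large-subunit ribosomal proteins had one in 41 of 47 (87.2%, median score 334) and those for small-subunit proteins in 28 of 31 (90.3%, median 369). Their strongest peaks were those of rpl-3 at 5952, rpl-35 at 4153 and rpl-24.2 at 3145, and of rps-22 at 2880, rps-12 at 1768 and rps-19 at 1365. The synthetase genes, which charge tRNAs, had one in 14 of 32 (43.8%, median 108), led by vars-1 at 2103, sars-2 at 1342 and aars-2 at 778. These differences were not tested.

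Translation genes with other symbols were counted from a list of 34, of which 32 were found in the annotation, and 21 of the 32 (65.6%) had a reproducible peak, with a median score of 209. The strongest were regulators rather than factors: gcn-1 at 3561 and gcn-2 at 2532, of the pathway that phosphorylates eIF2 alpha when amino acids run short, and daf-15, the worm Raptor of the TOR complex, at 2158. Of the other initiation genes 6 of 8 had a peak, of the elongation and termination genes 3 of 5, of the mitochondrial factors 4 of 4, of the regulators 5 of 7 and of the genes that modify eEF2 or eIF5A 3 of 8. The eIF3 subunits with other names, egl-45 (eIF3a) and cif-1 (eIF3m), chosen after their values were seen, had no reproducible promoter peak.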

How the data were processed

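The authors' deposited narrowPeak lists in ce11 (WBcel235) were used, and those in the older build were not analysed here. Text files that the authors deposited beside the lists say that peaks and background were called on each replicate and on both pooled, with a shared control, and an optimal list was derived by the irreproducible discovery rate. The peak caller, like the aligner and the threshold, is not given in the sources used here. Per the labels, the size range was 150 to 350 bp, and the antibody target is named as efl-1 in one field and eGFP-efl-1 in another. The score (column 7) is the authors' own, of unstated scale. The −log10 q-value was deposited by the authors and is capped at 1 maximum per list. Summit offsets are the authors' deposited bp from the entry start.

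Starts came from Ensembl release 115 and sequence from RefSeq, both of WBcel235. Peaks were assigned to promoters and searched for cores with Python 3.11.15, numpy 2.4.6 and scipy 1.17.1, in steps tested on simulated data. Every member is named, the 10 strongest and those with a shared peak with their value in each list, and the 3 strongest genes of each comparison list. Members and lists were chosen with earlier results of these data known. Alternatives were other promoter windows, start choices, peak subsets, search windows and single replicates. Genes that share a symbol or overlap were not treated specially.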

Additional observations from a re-analysis of the deposited data

How the results depend on the processing

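A promoter of 250 bp upstream to 50 bp downstream gave 19 members with a peak, a median distance of −138 bp, 5 shared peaks, 18 members with entries in both replicate lists, and 6 peaks with a CHR core. Peaks with −log10 q above 2 in each replicate left 19 members with a peak and 2 with an E2F core, and 19 members had such entries in both lists. There the members' median score was 454 and that of all bound genes 512, the reverse order of 312 against 169. The cause was not tested. Assigning each summit to its nearest start left 20 members and, by construction, 0 shared peaks. Searching 100 bp on each side found E2F cores in 8 and CHR cores in 17, and 25 bp found CHR cores in 4. The share of all genes with a peak, 14.8%, was 17.9% with a promoter of 1000 bp upstream to 200 bp downstream, 10.1% with the short promoter, 11.4% by nearest start, 9.85% with the stronger 50% of peaks, 15.9% with any overlapping base, 6.93% with the q minimum and 13.8% with the most upstream start. Leaving out 1 replicate gave 26 to 30 members, 11.8% to 14.8% of all genes, and median scores of 46.9 (without replicate 2) to 241 (without replicate 1), on each list's own scale. In these settings not every entry of the remaining list counted. Without replicate 2, 2350 genes counted, while 6009 had some promoter entry in the replicate 1 list. The genes eif-2Bgamma, eif-4A3 and ife-2 were then not counted, although they had replicate 1 entries at ranks 5218, 9209 and 5427. Without replicate 1, eif-2D was counted, through its replicate 2 entry at rank 3754. No paired analysis was possible because there was 1 group. Depth was unknown, so a missing entry does not show that EFL-1 was absent.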
